A study of Mus musculus with 12 samples.

Results

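The potassium channel genes of the mouse carry symbols that start with Kcn. Of 54735 gene symbols measured in every library, 99 start with Kcn, and 96 remained once 3 antisense or overlapping transcripts (Kcnab3os, Kcnd3os and Kcnq1ot1) were removed by their name endings. They were grouped by symbol alone, which need not match the gating or role of each member. The voltage-gated class held 35 genes (Kcna, Kcnb, Kcnc, Kcnd, Kcnf, Kcng, Kcnh and Kcnq). The inward rectifier class (Kcnj) held 15 and the two-pore class (Kcnk) 14. A further 8 were classed as calcium- or sodium-activated (Kcnma, Kcnn, Kcnt, Kcnu). Modifier subunits (Kcns, Kcnv) numbered 5 and accessory proteins (Kcnab, Kcne, Kcnip, Kcnmb, Kcnrg) 17. The last 2, Kcnmb4os1 and Kcnmb4os2, are noncoding antisense transcripts that the name rule kept and that belong to no channel class.

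RNA was sequenced from the dorsal telencephalon, the future cerebral cortex, of 12 C57/Bl6 mouse embryos at stage E13.5, with 4 embryos in each of 3 genotypes. Controls were Rnu11wt/flx::Trp53wt/wt::Emx1-Cre+, cKO embryos were Rnu11flx/flx::Trp53wt/wt::Emx1-Cre+, and dKO embryos were Rnu11flx/flx::Trp53flx/flx::Emx1-Cre+. Rnu11 encodes the U11 small nuclear RNA of the minor spliceosome, and Trp53 encodes p53. Each embryo carried Emx1-Cre, so the controls also had 1 floxed Rnu11 allele exposed to Cre. Emx1-Cre acts in dorsal telencephalic progenitors and their progeny, and vessels, microglia, blood and meninges in the dissected tissue do not descend from those cells. The labels do not say whether the embryos of a group came from different litters, so p-values measure the spread between these embryos.

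Potassium channels let potassium leave the cell and so set the resting potential and end electrical activity. Voltage-gated channels open on depolarization, inward rectifiers pass current best near the resting potential, and two-pore channels supply background leak. In the embryonic cortex such channels are found in dividing progenitors as well as in young neurons, and several family members are better known from blood vessels, choroid plexus or immune cells.

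Levels are given as TPM, a measure of transcript abundance that corrects for gene length, after each library was multiplied by 1 factor so that its typical gene matched the other libraries. Without that step the median gene of 11764 tested genes lay 0.25 higher on the log2 scale in cKO than in controls, and afterwards the median difference was -0.00. In dKO against control the median was -0.01 before and 0.00 after scaling. Between 24574 and 29300 symbols were above 0 per library, and the files give no read depth, so no counting error can be attached to a level. The genotypes were visible in the targeted genes. Rnu11 averaged 682 ± 71.7 TPM (SD, n = 4) in controls, 124 ± 17.2 in cKO and 178 ± 31.5 in dKO, with no overlap of either mutant with control. Trp53 averaged 4.03 ± 1.64 TPM in controls, 3.65 ± 0.207 in cKO and 1.33 ± 0.255 in dKO. Both Rnu11 losses and the Trp53 loss in dKO against control had an exact two-sided permutation p of 0.0286, the smallest that 4 embryos against 4 allow (0.0343 after Benjamini-Hochberg adjustment over 6 comparisons). Radial glial markers were present in all libraries, with 9 genes summing to between 274 and 319 TPM. They are not specific to the dorsal telencephalon. Summed levels of 8 markers of interneurons and the ventral telencephalon lay between 1.85 and 4.46 TPM. Blood markers (658 to 1269 TPM) and meningeal markers (24.2 to 57.2 TPM) were present too, and 2 of 4 tested meningeal markers were called higher in dKO than in controls.

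Most potassium channel genes averaged under 1 TPM in the E13.5 pallium. Of the 96, 18 had a deposited mean of at least 1 TPM over all embryos. Another 40 lay between 0.1 and 1 TPM, and 38 were below 0.1 TPM. Of all 54735 symbols, 11764 averaged at least 1 TPM and 20128 at least 0.1 TPM. These total RNA libraries held 12.7 to 17.9 percent of their TPM in protein-coding genes. A low TPM here is therefore not a measure of absence. No Kcn gene was at 0 in every library. At least 1 TPM was reached by 4 of 35 voltage-gated genes, 2 of 15 inward rectifiers, 3 of 14 two-pore genes, 2 of 8 calcium- or sodium-activated genes, none of the 5 modifiers and 7 of 17 accessory genes. The most abundant pore-forming gene was Kcnk10, which encodes the two-pore channel TREK-2, at 5.98 TPM over all 12 embryos as deposited. It was followed by the voltage-gated Kcnh7 at 4.82 TPM. The accessory genes Kcnip1 (4.66 TPM) and Kcne1l (4.34 TPM) were in the same range. Some channels of the mature brain were below 0.1 TPM: Kcna2 averaged 0.0608 TPM. Kcnc2, which encodes a Kv3 channel of fast-spiking neurons, averaged 0.0583 TPM. Kcna10 and Kcna7 were above 0 in 1 library each.

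**Figure D1:**
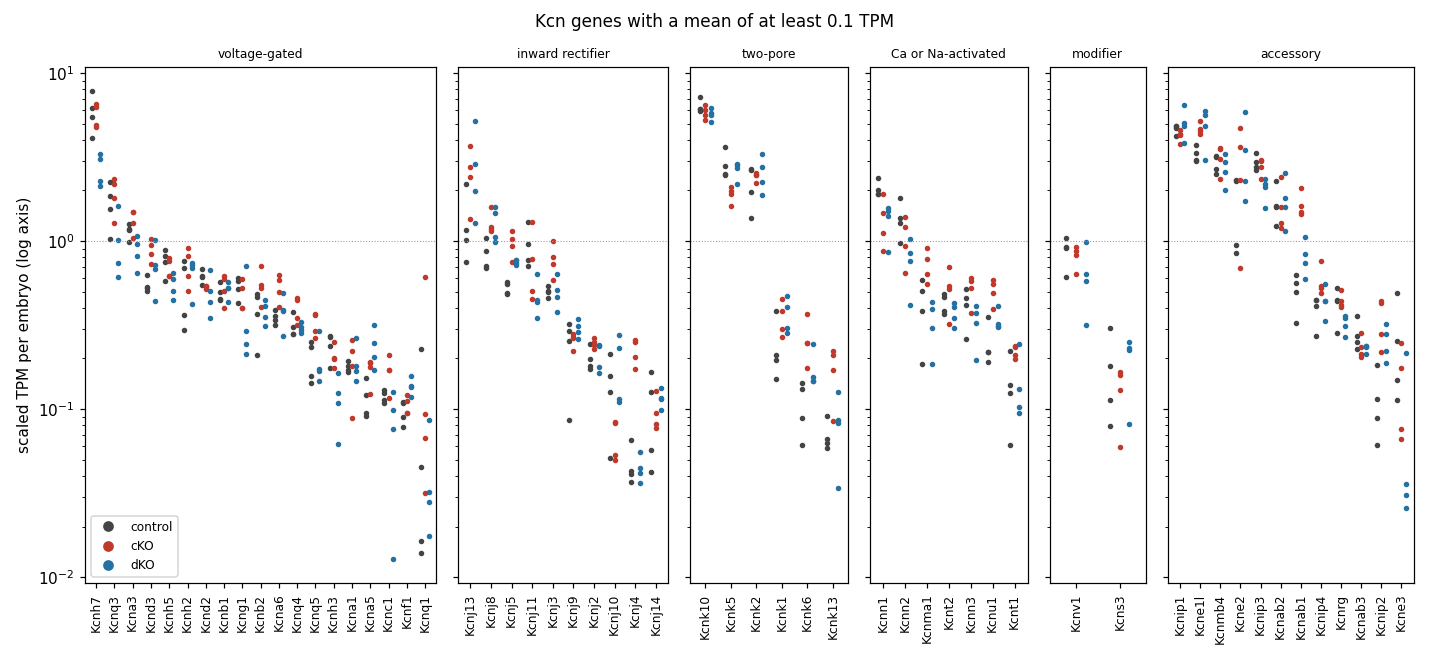
Level of Kcn genes averaging 0.1 TPM or more, in scaled TPM on a log axis, with 1 point per embryo (control grey, cKO red, dKO blue) and genes grouped by class. The dotted line marks 1 TPM. Genes were chosen and counted by their mean TPM as deposited, not by the scaled values plotted. By that mean, 3 voltage-gated, 2 inward rectifier, 3 two-pore, 2 calcium- or sodium-activated and 7 accessory genes of those plotted reach 1 TPM.

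Of the 18 Kcn genes tested, 4 differed between genotypes: Kcnab1, Kcnh7, Kcnk5 and Kcnip3. Differences were tested with limma on log2(scaled TPM + 1), a scale that understates the change of low genes. Tested genes averaged 1 TPM or more as deposited. In cKO against control, 1 of the 18 tested Kcn genes rose (Kcnab1) and 1 fell (Kcnk5), where 7.22 percent of all tested genes were called, 3.96 percent higher and 3.26 percent lower. In dKO against control, 2 fell (Kcnh7 and Kcnip3) and 0 rose (4 higher and 5 lower at an unadjusted limma p under 0.05, where 1437 and 1484 of the 11764 genes were), against 9 percent of all tested genes called, 3.95 percent higher and 5.05 percent lower. Between the mutants, 2 were lower in dKO than in cKO (Kcnab1 and Kcnh7) and 0 were higher (1 higher and 5 lower at an unadjusted limma p under 0.05, where 1365 and 1464 of the 11764 genes were), against 6.94 percent of all genes, 2.72 percent higher and 4.22 percent lower. With 2 of 18 called, the share in each comparison was near that of all genes. Without scaling of the libraries, 6, 1 and 8 Kcn genes were called in the 3 comparisons, where 35.4, 5.19 and 39.4 percent of all genes were. The 3 comparisons share samples, so their calls are not separate evidence.

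**Figure D2:**
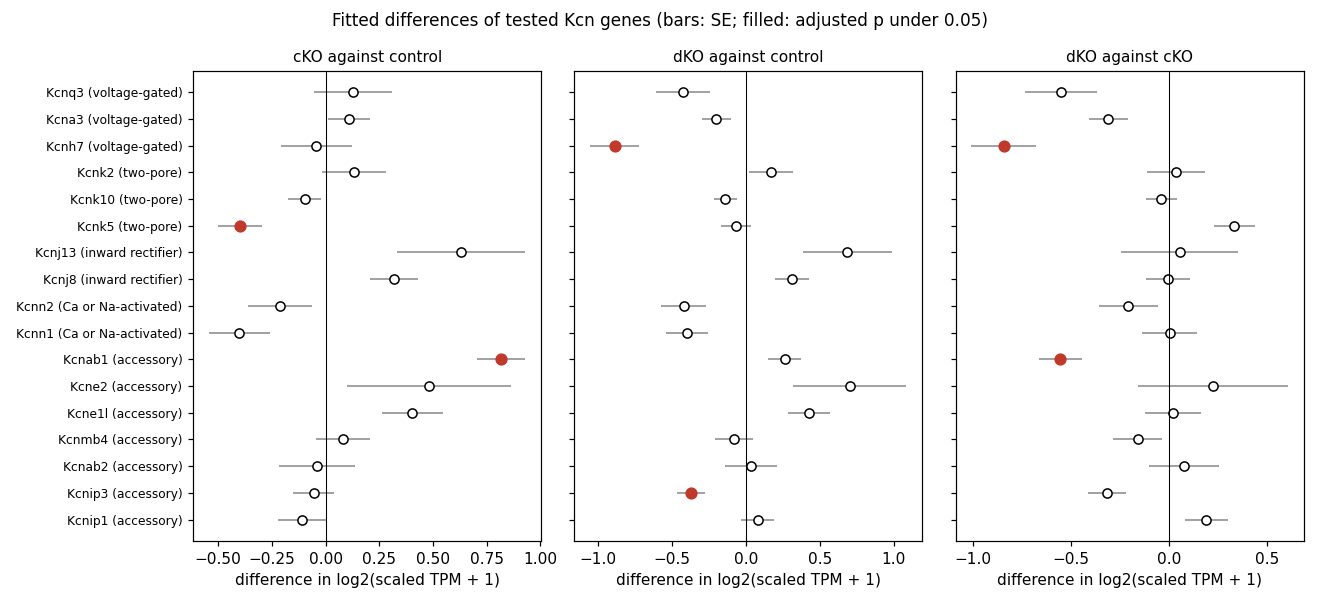
Fitted difference in log2(scaled TPM + 1) with its standard error for 17 of the 18 tested Kcn genes in the 3 comparisons, ordered by class. Filled red points have a limma adjusted p under 0.05: Kcnab1 and Kcnk5 for cKO against control, Kcnh7 and Kcnip3 for dKO against control, and Kcnab1 and Kcnh7 for dKO against cKO.

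Among voltage-gated genes, Kcnh7 was lower in dKO. Kcnh7 (mm10 chr2:62693410-63184287) encodes ERG3, a channel of the ether-à-go-go-related group that slows repetitive firing in neurons. The 4 control embryos had 4.09, 7.82, 6.20 and 5.47 TPM, and the cKO embryos had 4.88, 6.27, 6.56 and 4.74 TPM. The dKO embryos had 3.07, 3.31, 2.14 and 2.28 TPM. Every dKO embryo lay below every control and every cKO embryo, while control and cKO overlapped. The dKO mean of 2.70 ± 0.577 TPM was 45.8 percent of the control mean of 5.90 ± 1.55 TPM, a log2 difference of -0.88 ± 0.165 (SE; limma adjusted p = 0.00737). Against cKO (5.61 ± 0.937 TPM) the log2 difference was -0.84 (limma adjusted p = 0.0134), and it missed the threshold without cKO embryo 2 (-0.79, limma adjusted p = 0.0525). In cKO against control it was -0.04 (limma adjusted p = 0.919), with a sign that changed with the scaling.

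Neuronal markers were mixed in dKO against control and mostly lower in dKO than in cKO. The summed level of 16 neuronal genes ranged from 266 to 328 TPM in controls, 288 to 371 TPM in cKO and 207 to 300 TPM in dKO, and the dKO mean was 85.1 percent of control. Of the 14 neuronal genes tested, 2 were called lower in dKO than in control and 4 lower in dKO than in cKO, with none called higher in either comparison, and none of the 16 was at 0 throughout. Against control, most of the lower dKO sum was Neurod6, which averaged 101 TPM in controls and 66.0 in dKO. In that comparison 6 of the 16 genes (Stmn2, Map2, Syt1, Tbr1, Gap43 and Ina) had higher means in dKO. Against cKO, 15 of the 16 genes had lower means in dKO, and the mean sum was 254 TPM in dKO and 339 in cKO. The part of these marker differences in the Kcnh7 differences was not tested. In tissue RNA, fewer cells of a type and less RNA per cell cannot be told apart. About 4.57 percent of Kcnh7 exon bases overlap the gene Gca on the opposite strand, which averaged 0.794 TPM in controls, 0.373 in cKO and 0.290 in dKO, and whether the authors' counting used strand is not given in the sources used here.

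Neither Kcnq3 nor Kcna3, both voltage-gated, passed the test in any comparison. Kcnq3 encodes a Kv7 subunit of the M-current, a brake on neuronal excitability. Kcnq3 had 1.03, 2.24, 1.54 and 1.85 TPM in controls, 1.79, 2.35, 2.18 and 1.28 in cKO and 0.745, 1.61, 1.02 and 0.607 in dKO. The dKO mean of Kcnq3, 0.995 TPM, was below the control mean of 1.66 and the cKO mean of 1.90, but 1 or more dKO embryos overlapped each group (limma adjusted p = 0.17 and 0.092). Kcna3, which encodes Kv1.3, ranged from 0.992 to 1.26 TPM in controls, 1.04 to 1.497 in cKO and 0.649 to 1.08 in dKO.

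The summed level of all 35 voltage-gated genes was 17.96 ± 2.48 TPM in controls, 20.1 ± 2.35 in cKO and 13.7 ± 2.51 in dKO. Each pair of groups overlapped, dKO embryo 2 (17.3 TPM) being the dKO embryo that reached into both other groups. The dKO mean was 76.3 percent of control. Kcnh7 carried most of that gap: without it the sums were 12.1, 14.5 and 11.01 TPM, and dKO was at 91.2 percent of control. Over the 4 tested genes the median log2 difference was 0.12 in cKO against control, -0.31 in dKO against control and -0.43 in dKO against cKO, beside -0.00, 0.00 and 0.01 over all genes.

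**Figure D3:**
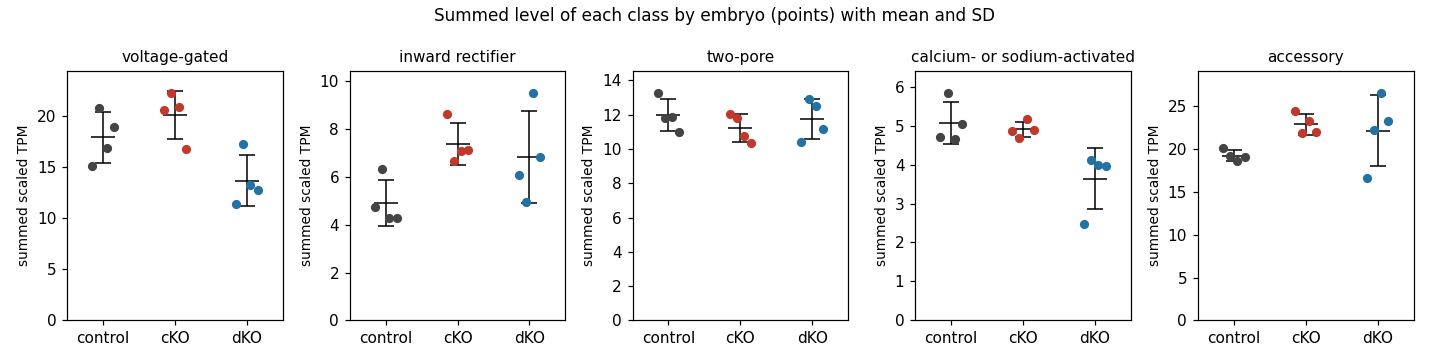
Summed scaled TPM of all genes in each of 5 classes, with 1 point per embryo and bars for the group mean and SD (n = 4). Voltage-gated and two-pore sums overlap between the groups, the inward rectifier and accessory sums lie higher in every cKO embryo than in every control embryo, and calcium- or sodium-activated sums are lowest in dKO.

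Inward rectifier genes had higher summed levels in cKO. The sum over 15 genes was 4.74, 6.31, 4.29 and 4.27 TPM in controls, 8.64, 6.67, 7.06 and 7.11 in cKO, and 6.08, 4.94, 9.48 and 6.83 in dKO. All cKO embryos lay above all controls, while dKO overlapped both groups. The means were 4.90 ± 0.963, 7.37 ± 0.869 and 6.83 ± 1.93 TPM, so cKO was at 150 percent and dKO at 139 percent of control. Over the 2 tested genes, Kcnj13 and Kcnj8, the median log2 difference was 0.48 in cKO and 0.50 in dKO against control, and 0.02 between the mutants. Neither gene passed the test in any comparison. Kcnj8 averaged 0.828 scaled TPM in controls and 1.15 TPM over all embryos as deposited, so it passed the filter through its mutant values. The medians are therefore a description of the genes that passed.

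Kcnj13 encodes Kir7.1, known from the apical membrane of the choroid plexus epithelium. It had 1.16, 2.19, 1.01 and 0.753 TPM in controls, 3.66, 1.34, 2.77 and 2.41 in cKO and 1.99, 1.28, 5.21 and 2.87 in dKO. The range within each mutant group was wider than its distance from the control mean, and the groups overlapped (limma adjusted p = 0.233 and 0.177 against control). Choroid plexus and hem markers varied between embryos alongside it. The summed level of Ttr, Folr1, Kl, Lmx1a and Otx2 ranged from 44.0 to 114 TPM in controls, 60.9 to 231 in cKO and 70.1 to 315 in dKO, with 0 of the 3 tested markers called in any comparison by limma. Most of this sum was Ttr, at 62.8 of 72.3 TPM on average in controls, 124 of 140 in cKO and 153 of 171 in dKO. Relations to the sum are therefore mainly relations to Ttr. Across the 12 embryos the log2 level of Kcnj13 followed the log2 marker sum with Pearson's r = 0.965 (permutation p = 1e-05, the smallest that 100000 resamples can give; 2e-05 after adjustment over 2 relations) and Spearman's rho = 0.958 (permutation p = 2e-05). Without the 2 embryos farthest from the median marker sum, dKO embryo 3 and control embryo 3, r was 0.950. Kcne2, an accessory subunit also known from choroid plexus, gave r = 0.945 (permutation p = 2e-05, adjusted 2e-05), rho = 0.965 (permutation p = 2e-05) and r = 0.923 without those embryos. These relations were examined after the values were seen, pool the 3 genotypes, and with 4 embryos per genotype were not computed within one. Without Kcnj13, the inward rectifier sum was 3.62 TPM in controls, 4.82 in cKO and 4.00 in dKO, and every cKO embryo then lay above every control and every dKO embryo. About 49.1 percent of Kcnj13 exon bases overlap Gigyf2 on the opposite strand, at 7.63, 7.62 and 7.08 TPM in the 3 groups, so reads of the pair cannot be told apart if strand was not used.

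**Figure D4:**
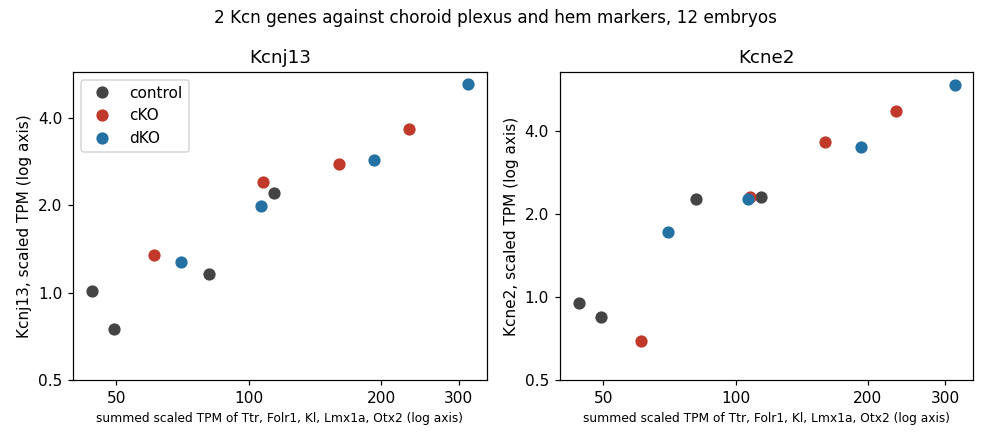
Scaled TPM of Kcnj13 (left) and Kcne2 (right) against the summed scaled TPM of 5 choroid plexus and hem markers, both on log axes, with 1 point per embryo coloured by genotype. Both genes rise with the marker sum, which is mostly Ttr, over the 12 embryos (r = 0.965 and 0.945). Embryos of the 3 genotypes are interleaved along it.

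Kcnj8 encodes Kir6.1, the pore of the vascular ATP-sensitive potassium channel and a pericyte marker. It had 0.708, 0.689, 1.05 and 0.868 TPM in controls, 1.18, 1.21, 1.14 and 1.59 in cKO and 1.60, 0.994, 1.05 and 1.47 in dKO. All cKO embryos lay above all controls, but the difference missed the threshold (limma adjusted p = 0.111 for cKO and 0.108 for dKO against control). Kcnj8 passed the filter through its mutant values, so its tests are given as a description. The summed level of 5 pericyte markers ranged from 4.53 to 6.50 TPM in controls, 7.37 to 8.43 in cKO and 5.89 to 8.95 in dKO, with 1 of the 2 tested called higher in cKO. Endothelial markers summed to between 9.77 and 11.8 TPM in controls, 15.6 and 17.6 in cKO and 12.1 and 20.2 in dKO. The part of vessel cells in the Kcnj8 values was not tested.

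Two-pore genes showed no common shift. Their sum was 11.98 ± 0.933 TPM in controls, 11.2 ± 0.810 in cKO and 11.8 ± 1.17 in dKO, with overlapping groups. The median log2 difference over the 3 tested genes was -0.10 in cKO and -0.06 in dKO against control, and 0.04 between the mutants. Kcnk10 had 6.10, 5.98, 7.17 and 6.09 TPM in controls, 6.44, 6.06, 5.65 and 5.27 in cKO and 5.66, 6.17, 5.74 and 5.08 in dKO, and Kcnk2, which encodes the mechanically gated TREK-1, ranged from 1.37 to 2.67, 2.21 to 2.54 and 1.88 to 3.28 TPM. Neither gene was called in any comparison, and their groups overlapped.

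Kcnk5 (mm10 chr14:20140057-20181782) fell in cKO. It encodes TASK-2, a leak channel opened by alkaline pH. The control embryos had 3.61, 2.51, 2.78 and 2.46 TPM, the cKO embryos 1.91, 2.11, 1.62 and 1.97 TPM, and the dKO embryos 2.19, 2.73, 2.84 and 2.89 TPM. Every cKO embryo lay below every control and every dKO embryo. The cKO mean was 66.9 percent of control, a log2 difference of -0.40 ± 0.102 (SE; limma adjusted p = 0.0377), and dKO against cKO gave 0.33 (limma adjusted p = 0.0728; called with median-shift centring at 0.0499, quantile normalization at 0.0340 and sample weights at 0.0318). The call rested on the scaling and on nearly the full set of embryos. With TPM as deposited the difference was -0.18 (limma adjusted p = 0.257), and with libraries matched on protein-coding genes the adjusted p was 0.0856, and without a filter on low values it was 0.0787. It was lost without control embryo 1 (limma adjusted p = 0.0685), control embryo 3 (0.0849) or cKO embryo 1 (0.0889), 2 (0.0616), 3 (0.101) or 4 (0.0623). Intermediate progenitor markers summed to 38.8 to 48.3 TPM in controls, 30.5 to 34.1 in cKO and 34.2 to 40.2 in dKO. Control and dKO sums overlapped. Of the 5, 3 were called lower in cKO and 1 lower in dKO than in controls. Their patterns differed. In control, cKO and dKO, Neurog2 averaged 16.5, 9.13 and 12.5 TPM and Neurog1 2.07, 0.989 and 1.72. Eomes averaged 9.07, 6.46 and 5.89 TPM, Insm1 1.38, 1.23 and 0.974, and Btg2 14.7, 14.8 and 15.8. The part of these markers in the Kcnk5 value was not tested.

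The summed level of calcium- or sodium-activated channel genes was lowest in dKO. Their sum was 4.70, 5.83, 4.66 and 5.05 TPM in controls, 4.87, 4.69, 5.17 and 4.88 in cKO, and 2.47, 4.12, 3.99 and 3.97 in dKO. All dKO embryos lay below all embryos of the other groups, and the dKO mean of 3.64 ± 0.778 TPM was 71.9 percent of control. No single gene passed the test. Kcnn1, which encodes the small-conductance channel SK1, had 1.91, 1.91, 2.38 and 2.02 TPM in controls, 1.46, 1.12, 0.870 and 1.92 in cKO and 0.861, 1.57, 1.41 and 1.502 in dKO. The dKO embryos lay below the controls without overlap, with limma adjusted p = 0.102, and 1 cKO embryo overlapped control. Kcnn2 (SK2) had means of 1.36, 1.04 and 0.764 TPM with overlapping groups. Most of the gap between the dKO and control sums lay in Kcnn1 and Kcnn2. Kcnn1 averaged 2.06 TPM in controls and was about as low in cKO (1.34) as in dKO (1.33). Kcnn3, Kcnt2 and Kcnma1 also averaged below control in dKO. Kcnu1 (0.244 TPM in controls, 0.338 in dKO), Kcnt1 (0.137 and 0.143) and Kcnn4, near 0, averaged above it. Kcnma1, the pore of the large-conductance BK channel, was below the level tested at 0.416 ± 0.176, 0.720 ± 0.159 and 0.329 ± 0.109 TPM.

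Among accessory genes, Kcnab1 rose in cKO. Kcnab1 (mm10 chr3:64949212-65378225) encodes Kvβ1, a cytoplasmic subunit that speeds inactivation of Kv1 channels. Levels were 0.499, 0.624, 0.323 and 0.566 TPM in controls, 1.46, 1.61, 2.06 and 1.48 in cKO, and 0.840, 1.06, 0.736 and 0.597 in dKO. Each cKO embryo was above each embryo of the other 2 groups, and dKO overlapped control through dKO embryo 4. The cKO mean of 1.65 ± 0.281 TPM was 3.28 times the control mean of 0.503 ± 0.130, a log2 difference of 0.82 ± 0.110 (SE; limma adjusted p = 0.000747). In dKO against cKO the difference was -0.55 (limma adjusted p = 0.0143), and in dKO against control 0.26 (limma adjusted p = 0.160). Among Kv1 pore genes, Kcna3 averaged 1.15, 1.32 and 0.874 TPM in control, cKO and dKO, Kcna6 0.351, 0.529 and 0.384 TPM with every cKO embryo above every control, and Kcna1 0.177, 0.187 and 0.190 TPM. Kcna2 and Kcna4 were under 0.1 TPM on average. With a mean of 1.04 TPM over all embryos as deposited, Kcnab1 passed the filter through its cKO values, so its tests are given as a description.

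Kcnab1 and Kcnh7 were called between the mutants with and without Trp53, so their start-site windows were searched for a p53 half-site, the 10-base consensus that p53 dimers recognise. RefSeq (GRCm38.p6) gives 3 such windows for Kcnab1, each running from 250 bases before to 50 after a start, and 1 of them holds a half-site. The 1 window of Kcnh7 holds 0 matches and is not printed, so the sequence shown was chosen for its match. The consensus is its own reverse complement, so a search of 1 strand covers both. The 250 bases before that start (chr3:64948962-64949211, plus strand, 5′ to 3′) are printed with the half-site in capitals, 211 bases before the start.
Kcnab1: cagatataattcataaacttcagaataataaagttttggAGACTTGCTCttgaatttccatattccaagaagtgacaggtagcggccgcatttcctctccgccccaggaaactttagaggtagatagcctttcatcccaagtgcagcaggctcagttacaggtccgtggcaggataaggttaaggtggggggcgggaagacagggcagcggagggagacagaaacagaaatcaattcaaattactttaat
A half-site was present in 2745 of 32851 windows of the same length over all genes (8.36 percent). Of 95 Kcn windows searched, 4 held a half-site (4.21 percent), those besides the Kcnab1 window belonging to Kcnab2, Kcnip4 and Kcnn1. These 95 windows came from 70 of the 96 Kcn genes. The remaining Kcn genes were not covered, so the list of genes with a match may be incomplete. The Kcn share is therefore not compared with that of all genes. The letters describe the window and are not evidence of binding.

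A neighbouring transcript on the opposite strand changed as well. A330015K06Rik overlaps 2.34 percent of Kcnab1 exon bases (201 of 8593) and was looked up after the Kcnab1 values were seen. It had 0.0177, 0.0259, 0.0101 and 0.0426 TPM in controls, 1.60, 1.39, 2.04 and 1.74 in cKO, and 2.07, 1.85, 1.38 and 1.01 in dKO. All mutant embryos exceeded all controls, and the log2 difference from control was 1.39 in cKO (limma adjusted p = 4.98e-05) and 1.31 in dKO (limma adjusted p = 0.00015). In dKO against cKO it was -0.08 (limma adjusted p = 0.757), whereas Kcnab1 fell there. Whether its reads reached the Kcnab1 values was not tested.

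Kcnip3 (mm10 chr2:127456498-127522094) fell in dKO. It encodes a calcium-binding protein, also called DREAM or calsenilin, that binds Kv4 channels and acts as a transcriptional repressor. Levels were 2.66, 2.74, 3.35 and 2.95 TPM in controls, 3.03, 2.99, 2.35 and 2.75 in cKO, and 1.58, 2.19, 2.33 and 2.09 in dKO. Each dKO embryo was below all embryos of both other groups, which overlapped with each other. The dKO mean was 69.8 percent of control, with a log2 difference of -0.37 ± 0.0952 (SE; limma adjusted p = 0.0326), and -0.32 against cKO (limma adjusted p = 0.0677; called with TPM as deposited at -0.55 and 0.00352, protein-coding rescaling at 0.0460 and sample weights at 0.0458). The call against control was lost without control embryo 2 (limma adjusted p = 0.0556), 3 (0.0916) or 4 (0.0799) or dKO embryo 1 (0.0538) or 4 (0.0612), with TPM as deposited (0.0734), without a filter (0.0728) and in a fit of the 2 groups alone (0.0765). The neuronal marker sum was also lowest on average in dKO, with directions mixed against control and mostly lower against cKO, as given for Kcnh7. Its part in the Kcnip3 value was not tested.

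Accessory genes as a class summed to 19.2 ± 0.633 TPM in controls, 22.9 ± 1.22 in cKO and 22.1 ± 4.14 in dKO. All cKO embryos were above all controls, and dKO embryos spread from 16.6 to 26.5 TPM. Kcnip1, a Kv4 partner, ranged from 4.20 to 4.86 TPM in controls, 3.78 to 4.59 in cKO and 3.84 to 6.47 in dKO. Kcne1l, an X-linked modulator of Kv7.1 also named Kcne5, had 3.74, 3.04, 3.34 and 3.01 TPM in controls, 4.64, 4.51, 4.31 and 5.20 in cKO and 3.04, 4.86, 5.59 and 5.94 in dKO. Its cKO embryos lay above the controls, but the test was not passed (limma adjusted p = 0.111 for cKO and 0.0858 for dKO). Kcnmb4, the neuronal β4 subunit of BK channels, averaged 2.90, 3.14 and 2.71 TPM with overlapping groups.

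**Figure D5:**
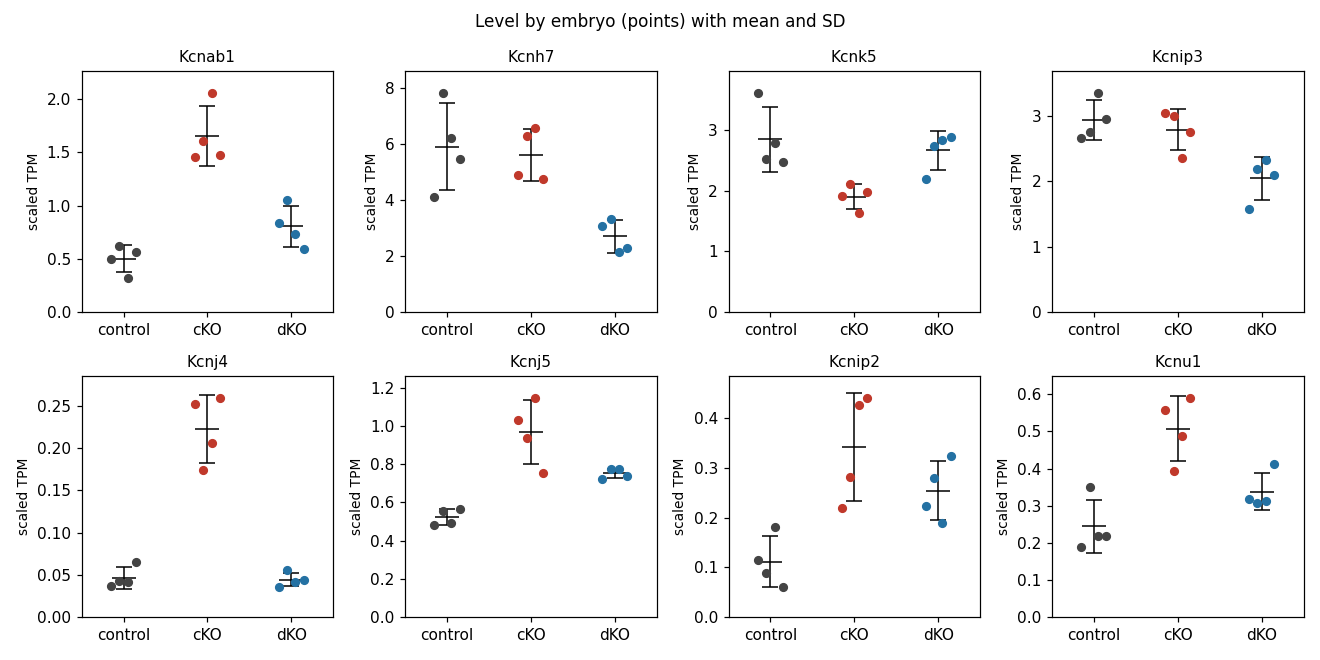
Scaled TPM by embryo (points) with the group mean and SD (n = 4) for 8 genes. The top row shows the genes that passed the test. The bottom row shows genes called only with the lower filter and pseudocount of 0.1. Each bottom-row gene (Kcnj4, Kcnj5, Kcnip2 and Kcnu1) is higher in each cKO embryo than in each control embryo.

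Because 40 Kcn genes lay between 0.1 and 1 TPM, the fit was repeated with a pseudocount of 0.1 on the 20128 genes averaging 0.1 TPM or more, an extension chosen after the data were seen. It covered 58 Kcn genes. In cKO against control, 5 rose (Kcnab1, Kcnip2, Kcnj4, Kcnj5 and Kcnu1), where 4.48 percent of all genes rose, and 1 fell (Kcnk5), where 1.87 percent fell (6.35 percent in both directions). In dKO against control, 0 rose and 2 fell (Kcnh7 and Kcnip3), where 3.95 percent and 4.19 percent of all genes did so by limma (8.14 percent together). In dKO against cKO, 0 rose and 3 fell (Kcnab1, Kcnh7 and Kcnj4), where 2.02 and 5.7 percent of all genes did so by limma (7.72 percent together). A gene that is low in control could enter this test through its cKO values alone, so these counts are a description of the genes that passed.

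Kcnj4 encodes Kir2.3, a strong inward rectifier of forebrain neurons. It averaged under 0.1 TPM in controls and in dKO and passed the filter only through its cKO values, so its test is given as a description. It had 0.0367, 0.0429, 0.0413 and 0.0654 TPM in controls, 0.252, 0.173, 0.205 and 0.259 in cKO, and 0.0363, 0.0554, 0.0419 and 0.0446 in dKO. The cKO embryos stood apart from both other groups, which overlapped. The cKO mean was 4.77 times the control mean, a difference of 1.13 ± 0.193 in log2(scaled TPM + 0.1) (SE; limma adjusted p = 0.00475). Between dKO and cKO the difference was -1.15 (limma adjusted p = 0.0062), and between dKO and control -0.02 (limma adjusted p = 0.97).

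Kcnj5, which encodes the G protein-gated subunit GIRK4, had 0.481, 0.557, 0.494 and 0.567 TPM in controls, 1.03, 0.938, 1.15 and 0.755 in cKO, and 0.722, 0.773, 0.773 and 0.740 in dKO. Both mutant groups lay above all controls. The cKO mean was 1.85 times control, a difference of 0.76 ± 0.132 in log2(scaled TPM + 0.1) (SE; limma adjusted p = 0.00516), and the dKO difference was 0.45 (limma adjusted p = 0.0569). Its heterotetramer partner Kcnj3 (GIRK1) averaged 0.501 TPM in controls, 0.779 in cKO and 0.496 in dKO, with cKO above control without overlap but not called (limma adjusted p = 0.0924).

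Kcnip2, a Kv4 partner, had 0.115, 0.0891, 0.182 and 0.0609 TPM in controls, 0.220, 0.281, 0.426 and 0.439 in cKO and 0.222, 0.279, 0.189 and 0.322 in dKO. Both mutants lay above control, and the cKO mean was 3.05 times control (limma adjusted p = 0.0237). Kcnu1, the sperm channel Slo3, had 0.190, 0.351, 0.218 and 0.219 TPM in controls, 0.558, 0.394, 0.488 and 0.590 in cKO and 0.319, 0.308, 0.312 and 0.412 in dKO, a cKO mean of 2.08 times control (limma adjusted p = 0.0195). Both calls were fragile. The Kcnip2 call was lost without control embryo 2 (limma adjusted p = 0.0531) or 4 (0.0668) or cKO embryo 3 (0.0674) or 4 (0.0586). The Kcnu1 call was lost without control embryo 3 (limma adjusted p = 0.0572) or 4 (0.0549) or cKO embryo 1 (0.0594) or 4 (0.0508).

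Signs over the 58 genes leaned upward in cKO. Some of these genes passed the filter only through their cKO values. Kcnj4 averaged 0.0466, 0.222 and 0.0445 TPM in control, cKO and dKO, and Kcnk13 0.0696, 0.172 and 0.0826. The signs therefore describe the genes that passed. In cKO against control 40 of 58 differences were positive (69.0 percent), beside 57.4 percent of all 20128 genes. The lean was seen in 15 of 20 voltage-gated, 8 of 10 inward rectifier and 4 of 6 two-pore genes. In dKO against control 30 of 58 were positive (51.7 percent, all genes 49.8 percent). In dKO against cKO 42 of 58 were negative (72.4 percent, all genes 55.9 percent), including 17 of 20 voltage-gated and 6 of 10 inward rectifier genes and 3 of 6 two-pore genes. Median differences in cKO against control were 0.23 for voltage-gated, 0.37 for inward rectifier and 0.33 for two-pore genes, beside 0.05 for all genes. In dKO against control they were -0.03, 0.21 and 0.16 beside 0 for all genes, and in dKO against cKO -0.35, -0.10 and -0.00 beside -0.04.

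Groups that did not overlap gave a similar picture, with the same limit on how genes passed the filter. In cKO, 14 of the 58 genes lay above all controls, where 10.7 percent of all genes did, and 2 lay below, where 5.31 percent did. Besides those already described, the 14 included the voltage-gated Kcnd3 (mean 0.548 TPM in controls, 0.885 in cKO, 0.713 in dKO), Kcna6 (0.351, 0.529 and 0.384 TPM) and Kcnq5 (0.196, 0.323 and 0.195 TPM). They also held Kcnip4 (0.393, 0.579 and 0.442 TPM), the two-pore Kcnk6 (0.106, 0.260 and 0.173 TPM) and the noncoding Kcnmb4os2 (0.542, 0.910 and 0.659 TPM), none of which was called. The genes below control were Kcnk5 and Kcnd2, whose product Kv4.2 carries the neuronal A-type current (0.613, 0.534 and 0.491 TPM). In dKO, 5 genes lay above all controls (Kcna5, Kcnf1, Kcnj5, Kcnk6 and Kcnip2) and 5 below (Kcnh7, Kcnh3, Kcnj11, Kcnn1 and Kcnip3), where 6.73 and 7.49 percent of all genes did. Kcnh3, a forebrain channel of the Elk group, averaged 0.239, 0.206 and 0.115 TPM, and Kcnj11, the Kir6.2 pore of neuronal ATP-sensitive channels, 0.932, 0.761 and 0.467 TPM. Against cKO, 2 genes were higher in every dKO embryo (Kcnj10 and Kcnk5) and 7 were lower (Kcnh7, Kcnh3, Kcnj4, Kcnma1, Kcnab1, Kcnip3 and Kcnrg), where 5.51 and 10.2 percent of all genes were.

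Of the marker lists examined, the microglial one had the highest ratio of cKO to control. Its sum over 9 genes was 13.6 to 15.9 TPM in controls, 45.5 to 63.4 in cKO and 16.3 to 23.2 in dKO, a cKO mean at 368 percent of control. Of the 8 tested, 7 were called higher in cKO than in control and 6 lower in dKO than in cKO, and none of the 9 was at 0 throughout. Kcnk13, which encodes the microglial leak channel THIK-1, averaged 0.0696 TPM in controls, 0.172 in cKO and 0.0826 in dKO, with overlapping groups. Kcna3, also known from microglia and lymphocytes, is described above and was not called. The part of microglia in the potassium channel genes that were higher in cKO, Kcnab1, Kcnj4 and Kcnj5 among them, was not tested.

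Genes that bind, anchor or regulate potassium channels, and the related Hcn channels, numbered 24, of which 10 were tested. Cntnap2, the Caspr2 protein that clusters Kv1 channels at the axon, rose in cKO, and none of the other 9 was called in that comparison, where 7.22 percent of all genes were called, so the count is near the share of all genes. Cntnap2 had 10.2, 11.1, 10.5 and 10.3 TPM in controls, 15.04, 15.9, 16.8 and 14.7 in cKO, and 11.5, 13.01, 12.6 and 15.9 in dKO. Both mutants lay above every control. The cKO difference was 0.53 ± 0.0872 (SE; limma adjusted p = 0.00326) and the dKO difference 0.30 (limma adjusted p = 0.0538), which passed the threshold without dKO embryo 1 (0.36, limma adjusted p = 0.0224). Dpp6 and Dpp10, partners of Kv4 channels, were below the level tested, at 0.254, 0.474 and 0.395 TPM and at 0.707, 1.26 and 0.711 TPM.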

How the data were processed

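Total RNA libraries (TruSeq stranded, NextSeq500, per the labels' protocols) from 12 embryos were analysed, 4 per genotype. The authors deposited 1 table per embryo of TPM per gene symbol; the unit was taken from the values, which are fractional and have the same sum in each library. Reads were aligned with HISAT2 to mm10, per the submitters' processing notes; the quantification tool, annotation and use of strand are not given in the sources used here.

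Each library was multiplied by 1 factor, the inverse of its median ratio to the geometric mean library. The ratio was taken over genes averaging 1 TPM or more as deposited and above 0 in all libraries. log2(scaled TPM + 1) was fitted with limma 3.58.1 in R 4.3.3 (eBayes with trend, 3 groups in 1 fit, no block) for the 11764 genes at or above that mean. P-values were Benjamini-Hochberg adjusted over all of them, and genes were called under 0.05. The extension to low genes used a pseudocount of 0.1 and genes averaging 0.1 TPM or more as deposited. Targeted genes were compared by exact permutation in R. The choroid plexus relations used random permutations in Python, with ranks and adjustment from scipy 1.17.1. Embryos were plotted with matplotlib 3.10.9. On simulated data with 200 of 11764 genes changed by 1 log2 unit in cKO against control, 178 were recovered with 17 false calls. Genes were simulated independently, and the changed ones were drawn from genes above 1 TPM in controls. The simulation therefore does not cover smaller differences, such as those of Kcnk5 and Kcnip3, or genes as low in controls as Kcnab1.

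Some Kcn genes are not reported here individually. Named genes are otherwise the 3 highest of each of 5 classes, the called Kcn and partner genes, and Rnu11 and Trp53; genes named for non-overlap, for overlapping exons or as low were chosen after their values were seen. The members and lists were chosen with earlier results of these data known. Alternatives were 4 scalings or centrings, the pseudocount, filters on low values, 2-group fits, sample weights, a replicate block, class membership and leaving out each embryo. Gene positions are from RefSeq (GRCm38.p6, all 96 matched by symbol or synonym) and exon overlaps from GENCODE M21.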

Additional observations from a re-analysis of the deposited data

Results flagged for a closer look

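Among 117 groups of 4 embryos examined, 5 held an embryo far from the other 3 by Dixon's test, where chance would give about 1 in 20 groups (5.85). Kcnj8 was high in cKO embryo 4, at 1.59 TPM against 1.14 to 1.21 in the other cKO embryos (gap of 0.843 of the group's range). Kcnk10 was high in control embryo 3, at 7.17 TPM against 5.98 to 6.10 (0.900). Kcnu1 was high in dKO embryo 4, at 0.412 TPM against 0.308 to 0.319 (0.892). The summed level of calcium- or sodium-activated genes was low in dKO embryo 1, at 2.47 TPM against 3.97 to 4.12 (0.911). The summed blood markers were low in control embryo 4, at 658 TPM against 1068 to 1151 (0.833).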

How the results depend on the processing

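With TPM as deposited the number of called Kcn genes (2 in each comparison) was 6 in cKO against control, all higher, 1 in dKO against control and 8 in dKO against cKO, all lower; the median of all genes then sat 0.25 above control in cKO, and of the channel partners (1, 0 and 0 called) 6, 0 and 6 were called. In cKO against control, protein-coding rescaling gave 1 Kcn gene, sample weights 4 and the lower pseudocount and filter 6, and partners numbered 2 under centring, quantile normalization or rescaling and 3 with weights. In dKO against control, no filter and 2-group fits gave 1 Kcn gene, and a filter of 5 TPM or weights gave 1 partner. In dKO against cKO, weights gave 5 Kcn genes and quantile normalization 1 partner. A filter of 5 TPM left 0 Kcn calls in each comparison by construction, since it removed the called genes. Same-numbered embryos did not deviate together (12 pairs, r from -0.097 to 0.079). These correlations cannot show whether the numbers mark shared litters or batches. With the replicate block 1, 1 and 2 Kcn genes were called. The Kcnk5, Kcnip3, Kcnip2 and Kcnu1 calls were then lost (limma adjusted p = 0.098, 0.0744, 0.0608 and 0.0600). Leaving out each embryo gave 1 to 2, 1 to 2 and 1 to 3 Kcn calls and 1, 0 to 1 and 0 to 1 partners.

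Class medians as deposited were 0.17 (cKO against control) and -0.20 (dKO against cKO) for two-pore genes, so their sign changed. With a pseudocount of 0.1 inward rectifiers stood at 0.77 in cKO and 0.79 in dKO against control, and voltage-gated genes at -0.55 in dKO against control and -0.74 against cKO. Without a filter, which adds genes near 0, these were 0.020, 0.016, -0.0023 and -0.046. With Kcnab and Kcne counted as voltage-gated the dKO median against control was 0.0046. Class sums in cKO as deposited were 23.3 (voltage-gated), 8.54 (inward rectifier) and 13.04 TPM (two-pore).

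Differences near 0 changed sign. Kcnh7 in cKO against control was 0.22 as deposited and 0.016 with rescaling (-0.18 to 0.084 leaving out each embryo), Kcnip3 0.18 as deposited (-0.087 to 0.0017), Kcnk5 in dKO against control 0.030 with weights (-0.11 to 0.026), and Trp53 in cKO against control 0.18 as deposited (-0.18 to 0.14). Rnu11 in dKO against cKO (0.51) missed the threshold as deposited (0.18), with rescaling (0.42) and without 7 of the 8 embryos in turn (0.40 to 0.60). The Kcnab1 call in cKO and the Kcnh7 call in dKO against control held without each embryo. In these fits the tested genes stayed those chosen on all embryos. Kcnab1 was among them through its cKO values, so its entry to the test was not examined. Causes were not tested. TPM holds no depth, so the counting error of the low genes is unknown.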
